A study of Mus musculus with 9 samples.

Results

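SAFB peaks lying in introns more than 10 kb from any exon are described here. SAFB1 (scaffold attachment factor B) is a nuclear RNA-binding protein, and a peak is a stretch of RNA that the depositors called as enriched after SAFB1 was immunoprecipitated (RIP-seq) from mouse embryonic stem cells. A peak was a member where its midpoint fell in an intron of a protein-coding gene on the same strand and lay over 10 kb from the nearest exon of that gene, with exons of every GENCODE transcript counted. The rule used position only, and 5573 of the 30998 peaks in the list (18.0%, 95% Wilson interval 17.6 to 18.4) met it. They made up 35.3% (34.5 to 36.0) of the 15804 peaks in introns of protein-coding genes.

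The study made 9 libraries in 5 groups, all from a CAST/B6 male ES cell line with a Rosa26-RMCE locus (a site for exchanging a cassette), and all after doxycycline for 3 days. SAFB1 antibody was used in 3 wild-type (WT) libraries, made from the parental cells and from clones of them, and IgG, the control antibody, in 2 wild-type libraries. SAFB1 antibody was also used in 2 clones without Safb1 and Safb2. FLAG antibody was used in 1 double-knockout library given an eGFP plasmid and in 1 given a plasmid for full-length SAFB1. For the latter, the title (a knockout clone) was followed over the genotype label, which says WT. The deposited list is 1 list for all libraries, with peak names that point to wild-type SAFB libraries, and it holds no value per library. The groups could therefore not be compared, no peak has a replicate, and no test across samples was made.

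Introns are transcribed with the rest of the gene and then removed by splicing and mostly degraded in the nucleus. In a very long intron most of the sequence is far from both splice sites, and transcribing it takes long. SAFB proteins carry an RNA recognition motif and have been described as binding purine-rich RNA and as associating with the nuclear matrix. Long introns are frequent in genes of the nervous system, many of which are silent or weakly transcribed in ES cells.

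Sequence could be shown for a few members, those that hold the whole 300-base window around a gene start tabulated by RefSeq (250 bases before the start and 50 after it). A RefSeq start lay in 14 members, on the member's own strand in 3 of them, and 13 members held a whole window. The windows below lie in 3 host genes that the results return to, and they are shown as the sequence that could be read inside members of those genes. Each lies at an annotated start of another gene, so they are not a sample of deep intronic sequence. Each is written 5' to 3' on the strand of the host gene (GRCm38.p6, the assembly of mm10), with runs of at least 6 A or G in capitals. The Grip1 window is chr10:119747215-119747514, plus strand, at the start of the RefSeq gene Gm46207. The St6galnac3 window is chr3:153298600-153298899, minus strand, at the start of 1700012D16Rik. The Cdk6 window is chr5:3412660-3412959, plus strand. It holds the start of Gm29868, which RefSeq places on the other strand. In the same order, the midpoints of the members that hold these windows lie 72214, 73458 and 16320 bases from the nearest exon of the host gene.
Grip1: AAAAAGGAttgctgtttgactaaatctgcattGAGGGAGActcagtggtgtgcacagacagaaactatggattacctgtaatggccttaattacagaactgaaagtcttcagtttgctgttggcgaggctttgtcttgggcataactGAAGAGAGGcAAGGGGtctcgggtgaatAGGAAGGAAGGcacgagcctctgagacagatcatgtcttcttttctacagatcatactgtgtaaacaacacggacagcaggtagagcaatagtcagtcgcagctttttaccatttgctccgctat
St6galnac3: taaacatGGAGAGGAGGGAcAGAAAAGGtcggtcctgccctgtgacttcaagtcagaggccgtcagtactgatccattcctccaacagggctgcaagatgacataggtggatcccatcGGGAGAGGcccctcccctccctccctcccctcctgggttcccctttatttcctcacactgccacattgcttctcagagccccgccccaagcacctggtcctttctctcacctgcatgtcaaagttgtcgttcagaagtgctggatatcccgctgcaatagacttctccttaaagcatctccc
Cdk6: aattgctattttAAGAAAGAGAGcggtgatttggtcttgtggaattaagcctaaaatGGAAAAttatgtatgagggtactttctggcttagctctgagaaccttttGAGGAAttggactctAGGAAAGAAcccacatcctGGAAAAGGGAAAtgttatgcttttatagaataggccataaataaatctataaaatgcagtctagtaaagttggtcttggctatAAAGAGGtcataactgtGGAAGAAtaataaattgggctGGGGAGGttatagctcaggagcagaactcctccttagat

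A and G made up 54.7% of the Grip1 window, 42.3% of the St6galnac3 window and 58% of the Cdk6 window. Over all 32851 RefSeq windows of this length, each read on the strand of its own RefSeq gene, the median was 50.3% (quartiles 46.7 and 54.3). The Grip1 window held 5 purine runs, the longest of 11 bases. The St6galnac3 window held 3 such runs and the Cdk6 window 8, with a longest run of 12 bases in each. The median over all windows was 4 runs. The Grip1 window lay just above the upper quartile and the St6galnac3 window below the lower one. The Cdk6 window is read here on the strand opposite to its RefSeq gene. Its share and runs are therefore not on the strand used for all windows and cannot be set against them. On the host strand these windows differed in composition among themselves. Of 3 purine hexamers searched, which can overlap each other, AGAAGA was found on either strand in 24.9% of all windows. The share was 23.0% for GAAGAA. It was 22.5% for AAGAAG, and 42.6% of all windows held at least 1 of the 3. On the host strand the Cdk6 window held 1 match and the Grip1 and St6galnac3 windows none. The shares over all windows count either strand. On the strand opposite to the host the Grip1 window held 2 matches and the St6galnac3 and Cdk6 windows none. A match is a description of letters, not a binding site.

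Members lay a median of 24.0 kb from the nearest exon (quartiles 15.1 and 44.6). Of them, 1192 (21.4%) lay over 50 kb and 390 over 100 kb from an exon. From the start of the host gene the median distance was 116 kb (quartiles 51.0 and 234). The threshold cut through a continuous distribution. The member nearest to it lay 10002 bases from an exon of C2cd2, and the nearest peak outside it lay 9997 bases from an exon of Sept10. Between 9000 and 10000 bases there were 341 peaks (18.6 per Mb of intron), and between 10000 and 11000 bases there were 333 (19.8 per Mb).

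Deep intronic sequence, the bases that could hold a member, came to 307 Mb, or 32.3% of the 951 Mb of intronic sequence in protein-coding genes. Members were found at 18.1 per Mb of it (exact Poisson interval 17.7 to 18.6), and together they covered 1.37% of its bases. All intervals cover counting error only and treat peaks as independent, although peaks of 1 intron come from the same transcript. Density was lowest next to exons, at 13.5 per Mb (12.8 to 14.3) within 1 kb of an exon. It was 20.1 per Mb between 5 and 10 kb and 19.8 (19.0 to 20.6) between 10 and 20 kb. Farther away it was 18.1 (17.3 to 18.9) between 20 and 50 kb, 16.5 (15.3 to 17.6) between 50 and 100 kb and 14.4 (13.0 to 15.9) beyond 100 kb.

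The decline with distance was not seen when each gene was set against itself. Each gene's intronic peaks were shared out over its introns by length, and the observed number was divided by the number so given. The ratio was 0.728 (0.687 to 0.769) within 1 kb of exons and 0.940 (0.885 to 0.996) between 1 and 2 kb. It was 1.05 (1.01 to 1.09) between 2 and 5 kb and 1.05 (1.02 to 1.09) between 5 and 10 kb. Members between 10 and 20 kb had the same ratio as these nearer peaks, 1.05 (1.01 to 1.09). Between 20 and 50 kb, where 2093 members lay, it was 1.03 (0.994 to 1.07), an interval that includes 1. Between 50 and 100 kb it was 1.14 (1.07 to 1.20), and beyond 100 kb it was 1.18 (1.10 to 1.26). Without Grip1, Dpp6 and Pde4d, the genes with most members, the ratio beyond 100 kb was 1.14. Over all members it was 1.06 (1.04 to 1.08), with 5243 peaks given by length. Of 329 genes with at least 10 intronic peaks, 201 held more deep peaks than their length gave and 127 held fewer, with a median ratio of 1.09. Beyond 50 kb the pooled density was thus below that at 10 to 20 kb, while the within-gene ratio was above 1.

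**Figure D1:**
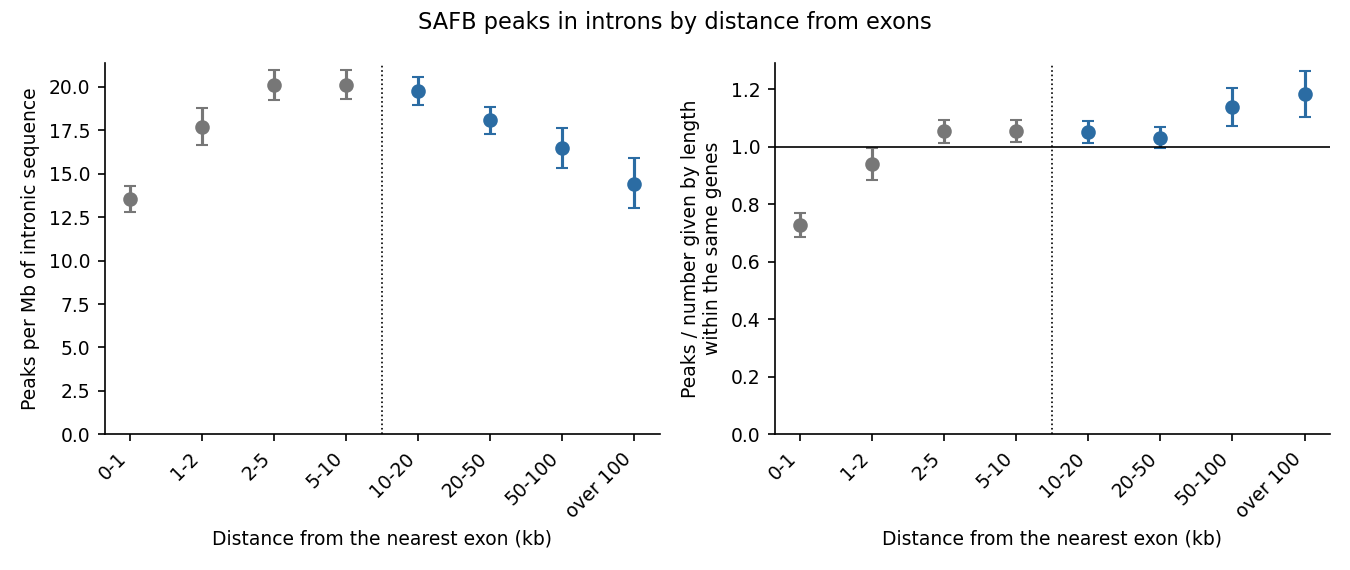
Peaks per Mb of intronic sequence (left axis) and the ratio of peaks to the number given by length within the same genes (right axis), against distance from the nearest exon in kb. Points are values over all genes, bars are 95% intervals of counting error, blue points lie beyond the 10 kb threshold (dotted line), and beyond 100 kb the density is 14.4 per Mb and the ratio 1.18.

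Members were spread over many genes and concentrated in few. At least 1 kb of deep intronic sequence was present in 3948 genes, and 1237 of them (31.3%, interval 29.9 to 32.8) held a member. Exactly 1 member was found in 464 host genes, at least 10 in 139 and at least 20 in 45. The 20 genes with most members held 18.3% of them, 100 genes held 42.9%, and 137 genes held 50%. Of 8960 introns with deep sequence, 1914 (21.4%) held a member, 923 of these held exactly 1 and 86 held at least 10. Introns with a member had a median length of 54.6 kb (quartiles 37.6 and 88.6), against 35.9 kb (25.8 and 59.7) over all introns with deep sequence. A longer intron has more deep bases that could hold a member, so such a difference arises even at equal density. Density was 20.8 per Mb in introns of 20 to 50 kb, 16.4 at 200 to 400 kb and 11.4 beyond 400 kb.

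The genes with most members had varied roles. Grip1, a scaffold protein that binds glutamate receptors, held 119 members at 307 per Mb of its deep sequence (254 to 367), beside 192 per Mb in its introns within 10 kb of exons. Dpp6, which associates with potassium channels of the Kv4 family, held 113 at 203 per Mb (167 to 244), beside 119 per Mb nearer to exons. Pde4d, a phosphodiesterase that degrades cyclic AMP, held 107 at 96.0 per Mb, beside 112 nearer to exons. These genes differed in where their peaks lay, with Grip1 and Dpp6 denser deep in introns and Pde4d about even. Shisa6, which binds AMPA-type glutamate receptors, held 38 at 158 per Mb. Kcnq3, a potassium channel subunit, held 31 at 147 per Mb.

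After Pde4d, the genes with most members were Hs6st3, Gpc6 and Rora. Hs6st3, a sulfotransferase of heparan sulfate, held 91 members at 129 per Mb and no peak in the 20 kb of its intron nearest to exons. Gpc6, a glypican that carries heparan sulfate chains, held 64 at 71.1 per Mb. St6galnac3, a sialyltransferase, held 32 at 74.6 per Mb. Ntn1, the axon guidance cue netrin-1, held 34 at 346 per Mb, the highest density among the 20 genes. The guidance ligand Efna5 held 30 and the teneurin Tenm4 held 36, at 132 and 96.9 per Mb.

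Rora, a nuclear receptor, held 61 members at 102 per Mb beside 16.5 nearer to exons. Ebf1, a factor known from B cell development, held 28 at 119 per Mb beside 27.3 nearer to exons. The others were Xkr4 (43 members), the WW-domain oxidoreductase gene Wwox (37), the cadherin Cdh4 (35), Atrnl1 (32), the focal adhesion gene Lpp (30), the ankyrin Ank2 (29) and Setbp1 (28). In 16 of the 20 genes the density was higher over 10 kb from exons than nearer to them. The lowest density among them, 53.8 per Mb in Wwox, was 2.97 times that of all deep sequence. The ranking was made on the number of members, which favours genes denser deep in introns, so these levels and the count of 16 are a description. Among the 329 genes with at least 10 intronic peaks, deep or nearer, 61.1% held more deep peaks than their length gave.

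**Figure D2:**
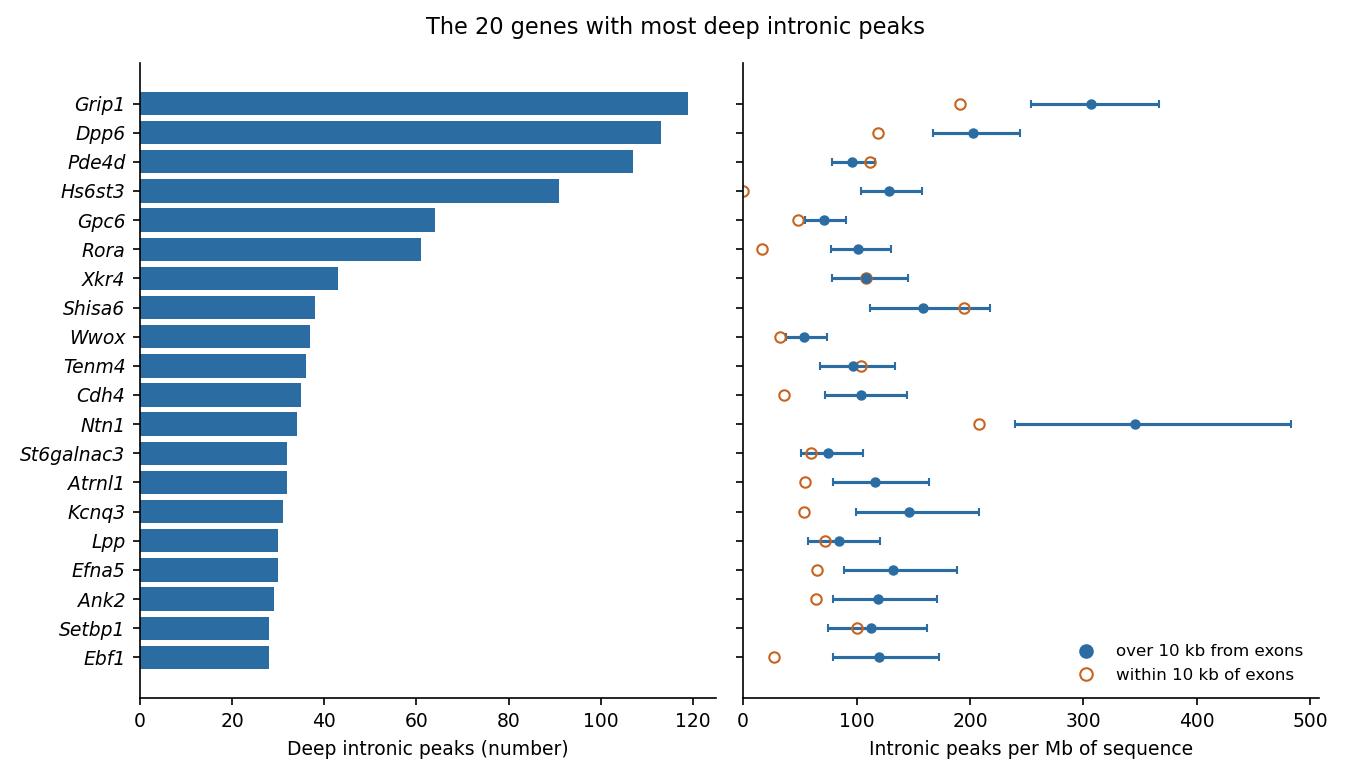
The 20 genes with most deep intronic peaks: the number of peaks (left) and peaks per Mb of intronic sequence (right) over 10 kb from exons (filled, with 95% Poisson intervals) and within 10 kb (open). Grip1 leads with 119, Ntn1 has the highest density at 346 per Mb, and Hs6st3 has no peak within 10 kb of an exon.

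Ranking by density among the 303 genes with at least 5 members brought up smaller genes. Pcolce2, which enhances procollagen processing, held 5 members in 11.2 kb of deep sequence, or 445 per Mb with an interval of 144 to 1038. Sulf1, an extracellular sulfatase of heparan sulfate, held 15 at 353 per Mb. The next were Ntn1, 2900011O08Rik (310 per Mb) and Grip1, followed by Prtg (306), Zfp608 (296), the kinase genes Mapk4 (246) and Cdk6 (227) and the semaphorin Sema6a (221). Over the 303 genes the median was 56.6 per Mb. The intervals of the smaller genes are wide, so the order among these 10 is not resolved by their counts.

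In the introns with most members, spacing and extent differed. The first intron of Grip1 (chr10:119454423-119819388, 365 kb) held 107 members with a median gap of 1.53 kb, and they covered 24.1% of its deep sequence. Its members lay on both sides of the midpoint, 46 upstream and 61 downstream. The only intron of Hs6st3 (730 kb) held 91 members, 57 upstream and 34 downstream of the midpoint, with a largest gap of 43.8 kb. Intron 4 of Rora (531 kb) held 59, with 35 upstream and 24 downstream and a largest gap of 62.0 kb. In Dpp6, intron 5 held 46 members and the neighbouring intron 4 held 33, and members covered 18.9% and 27.6% of their deep sequence. The first intron of Xkr4 held 34, of which 25 lay upstream. Intron 3 of Cdh4 held 34, with 17 on each side.

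**Figure D3:**
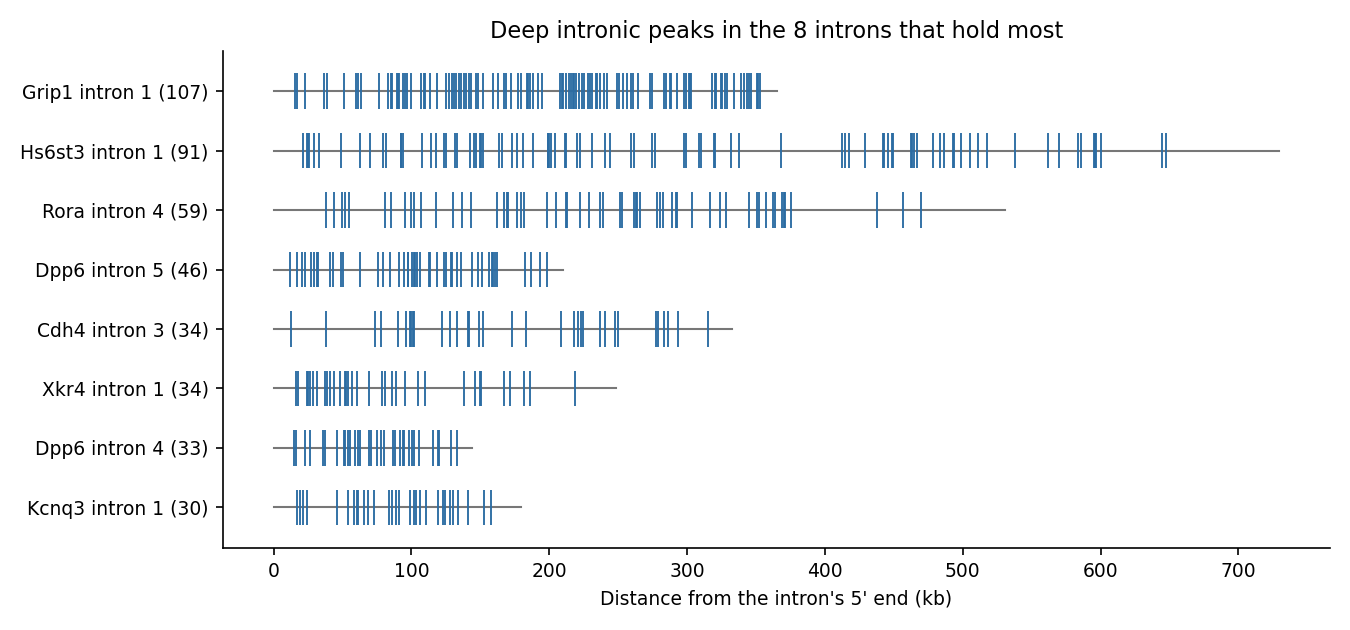
Positions of members (ticks) along the 8 introns that hold most, as distance in kb from the intron's 5' end, with the number of members in brackets. Ticks run through nearly the whole of Grip1 intron 1, while in Xkr4 intron 1 they crowd toward the 5' end (25 of 34 upstream of the midpoint).

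Within the same intron the gap between the end of a member and the start of the next had a median of 4492 bases (quartiles 1171 and 11866.5, 3659 gaps). The authors' peak names end in a number that rises along each chromosome and strand. For 30.5% of members (29.3 to 31.7) the next number was also in the list, against 24.3% (23.3 to 25.3) of the 6729 peaks nearer to exons in genes with deep sequence. The difference was 6.22 percentage points (Newcombe interval 4.63 to 7.80). Without Grip1, Dpp6 and Pde4d the shares were 28.8% and 23.8%. What the numbers stand for is not given in the sources used here.

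In introns of 200 to 400 kb, members lay more often on the upstream side. There 61.4% (57.9 to 64.8) of 749 members lay upstream of the intron's midpoint, where 49.9% of the deep bases lie. The share was 48.5% (45.8 to 51.2) in introns of 20 to 50 kb, 52.4% (50.1 to 54.7) at 50 to 100 kb and 54.4% (51.8 to 57.0) at 100 to 200 kb. The 200 to 400 kb class exceeded the 20 to 50 kb class by 12.9 percentage points (8.48 to 17.3) and the 100 to 200 kb class by 7.01 (2.65 to 11.3). Over all members the share was 53.5% (52.2 to 54.8).

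Counting introns in place of peaks gave the same direction. In the 200 to 400 kb class, 58 introns held more members upstream and 15 more downstream, so that 79.5% (68.8 to 87.1) of the introns without a tie leaned upstream. At 20 to 50 kb the share was 48.7% (45.1 to 52.2). Leaving out the 5 introns with most members raised the share of members upstream in the 200 to 400 kb class to 66.5% (62.3 to 70.5, 499 members). Beyond 400 kb the share was 58.5% of 236 members in 11 introns, but it was 47.8% of 23 without the 5 introns with most, so it rests on those introns. Density in the 200 to 400 kb class was 21.1 per Mb in the first 10% of the intron and 9.22 per Mb in the last 10%.

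**Figure D4:**
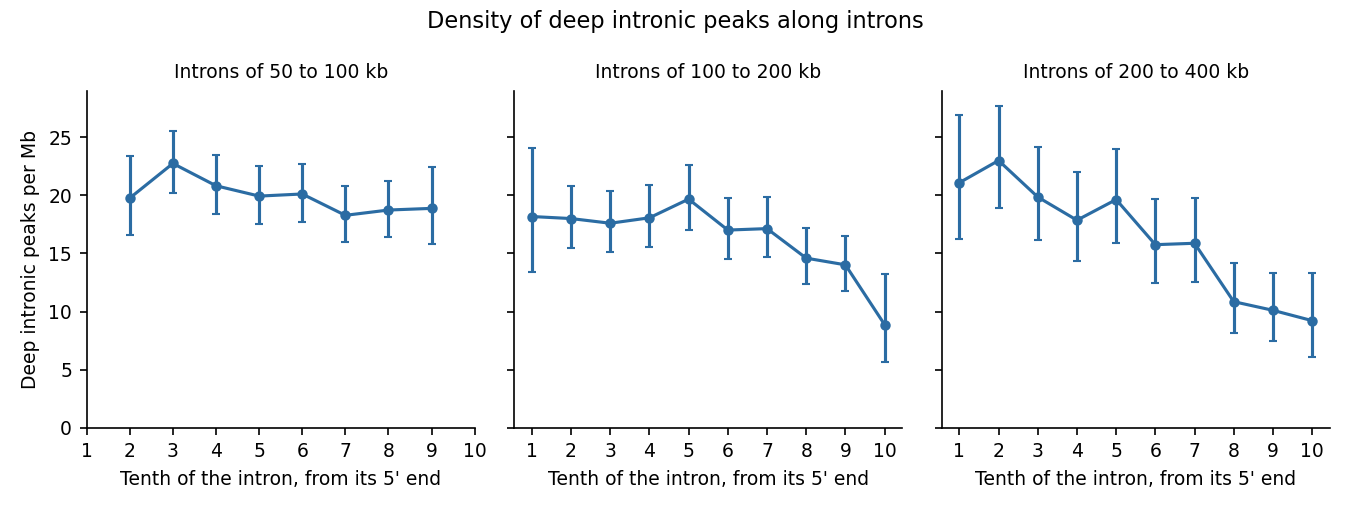
Members per Mb of deep sequence in 10 equal stretches of the intron, numbered from the 5' end, for introns of 50 to 100, 100 to 200 and 200 to 400 kb. Bars are 95% Poisson intervals, stretches without enough deep sequence are left out, and the longest class has 21.1 per Mb in the first stretch and 9.22 in the last.

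For position along the gene, each gene's members alone were shared out over its deep sequence by length. The observed and given totals are then equal, so this ratio is not on the scale of the one by distance from exons. In the first 50 kb from the gene start it was 0.979 (0.944 to 1.01). It was 1.10 (1.05 to 1.14) between 100 and 200 kb and 0.897 beyond 400 kb, with an interval that lay below 1. First introns held 1493 members (26.8%, 25.6 to 28.0), against 1514 given by length, a ratio of 0.986 (0.961 to 1.01). Where a gene's deep sequence lies only in its first intron, the observed and given numbers are equal by construction. In 429 genes with deep sequence in first and other introns, first introns held 971 members against 992 given by length. The ratio there was 0.979 (0.940 to 1.02). A difference between the first intron and later ones was therefore not detectable in these counts.

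The peaks were on the strand of the host gene in nearly all cases, which the rule required of members but not of other peaks in the same sequence. In the 292 Mb of deep sequence with no gene annotated on the other strand there were 5285 members and 357 peaks of the other strand. The same-strand share was 93.7% (93.0 to 94.3), and the densities were 18.1 and 1.22 per Mb (1.10 to 1.36). The median member was 589 bases wide (quartiles 299 and 1077), and widths ran from 74 to 4465 bases. Nearer peaks of genes with deep sequence had a median of 635 (315 and 1182), and peaks of the other strand a median of 395 (204 and 679). Within the 329 genes that held at least 3 of each kind, members were wider in 175 and narrower in 154, so the widths did not separate deep from nearer peaks. The widest members were in Grip1 (4465 bases), Shroom3 (4086), Mcu (3585) and Zfp704 (3581).

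Genes with more deep sequence more often held a member, up to a point. The share of genes with a member was 7.21% where deep sequence came to 1 to 10 kb, 27.5% at 10 to 50 kb and 55.4% at 50 to 100 kb. It was 58.9% at 100 to 200 kb, 59.6% at 200 to 500 kb and 55.8% of the 104 genes with 500 kb or more. Density over those 104 genes was 9.25 per Mb, below the 21.4 per Mb of the 200 to 500 kb class. Of them, 46 held no member, 26 held fewer than 5, and 12 with 20 or more held 609 of their 846 members (72.0%).

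The genes with most deep sequence and no member encode mainly neuronal adhesion and synapse proteins. They included Lsamp (1934 kb of deep sequence), Ptprd (1773), Cntnap2 (1748), Dmd (1327), Lrp1b (1267), Rbfox1 (1238), Il1rapl1 (1220), Ctnna3 (1206) and Lrrc4c (1147). Dmd encodes dystrophin, the muscle membrane protein, Rbfox1 a splicing factor and Ctnna3 a catenin. In introns within 10 kb of exons Dmd held 3 peaks, Rbfox1 held 1 and the other genes named here held none. For Lsamp, a count of 0 allows up to 1.91 members per Mb (upper exact Poisson bound). A gene that is not transcribed and one that is transcribed but not bound cannot be told apart here, since the list holds no RNA level. In bulk cells, fewer cells with a transcript and less RNA per cell cannot be told apart either.

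**Figure D5:**
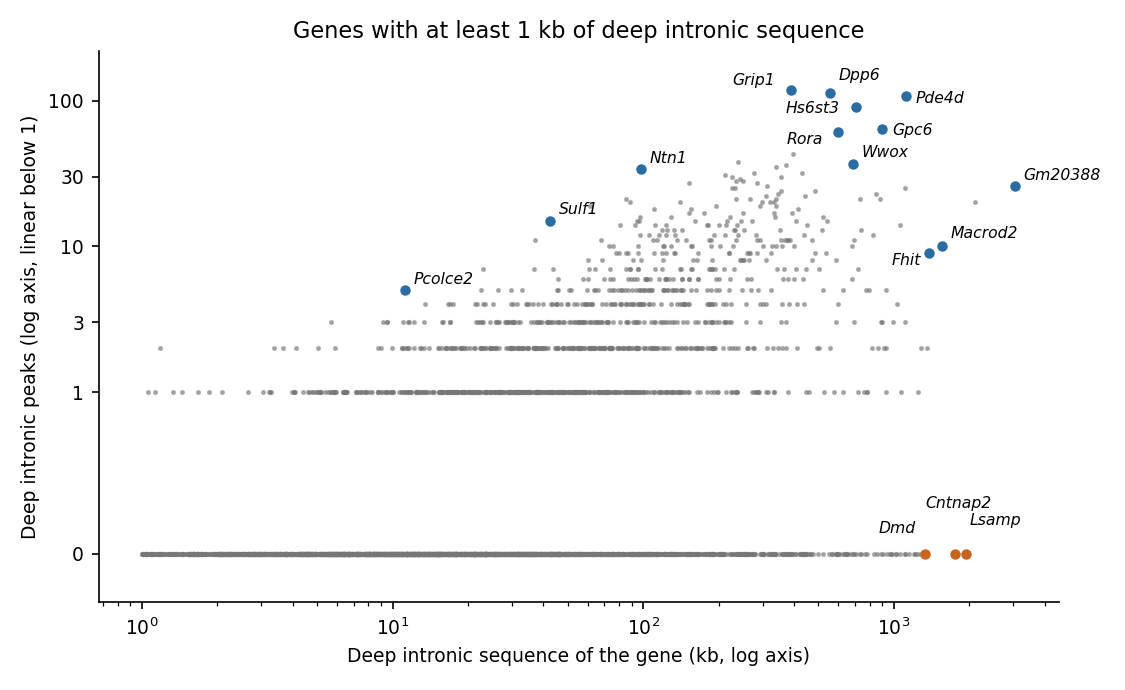
Members per gene (log axis, linear below 1) against kb of deep intronic sequence in the gene (log axis), 1 point for each of the 3948 genes with at least 1 kb. Blue points name genes with members and orange points genes with none: Grip1 holds 119, while Lsamp with 1934 kb holds 0.

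Gene lists chosen with earlier results of these data known were read against all genes with deep sequence. Among the 749 genes with at least 100 kb of it, 58.7% held a member, with a median density of 6.61 per Mb. Over the genes with at least 1 kb the share was 31.3% and the median 0, so the larger genes are the fitting background for most lists. Of 22 giant neuronal adhesion and synapse genes, all above 100 kb, 8 held a member (36.4%, 19.7 to 57.0), at a median of 0 and a summed density of 1.94 per Mb. Ptprt held 21 of their members, Ctnna2 held 5 and Negr1 held 3. Of 18 large genes at common fragile sites, 14 held a member, 13 of them among the 17 above 100 kb (76.5%), with a median of 16.1 per Mb. Wwox (37), Lpp (30) and Magi2 (25) led that list. Both lists hold very long genes, and the summed densities were 1.94 and 13.2 per Mb.

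Of 30 genes for ion channels, their subunits and neurotransmitter receptors, 16 held a member (53.3%), a share near the background, with 207 members led by Dpp6, Kcnq3, Gabrg3 (15) and Gria4 (9). Heparan sulfate proteoglycan and modifying genes held members in 10 of 17, and in 8 of the 9 above 100 kb, at a summed density of 51.0 per Mb. Hs6st3 and Gpc6 held most of these, followed by Hs6st2 (25) and Hs3st4 (17), and the median gene had 5.09 per Mb. Axon guidance cues and receptors held members in 9 of 21 genes above 100 kb (42.9%), and the list named cyclic nucleotide enzymes in 5 of 12 (41.7%). Tenm4, Efna5 and Tenm3 (24) led the former, and Ntn1 lay just below that length. The latter list as drawn up also holds Prkce (23) and Prkca (6), which encode protein kinase C enzymes and do not act on cyclic nucleotides. They are 2 of its 5 genes with a member, so its share does not describe cyclic nucleotide enzymes alone. In both lists the median over genes with at least 1 kb was 0, so a few genes carried most of the members.

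Transcription factors and chromatin regulators with long introns held members in 20 of 27 genes above 100 kb (74.1%), led by Rora, Ebf1, Aff3 (27) and Bach2 (25). Actin, microtubule and membrane skeleton genes held members in 12 of 17 (70.6%), led by Lpp, Ank2, Mast4 (20) and Diaph2 (15). Cadherins and protocadherins held members in 8 of 11 above 100 kb (72.7%), led by Cdh4 and Cdh13 (13), and Cdh2 (7) lay below that length. The other genes of the 8 held few members: Pcdh7 and Fat3 4 each, Cdh12 2, and Cdh18, Pcdh15 and Pcdh9 1 each. Over all 19 genes of this list the median was 0.934 per Mb. Their summed density was 10.6 per Mb, below the 18.1 per Mb of all deep sequence, although the share with a member was above the background. The list of RNA-binding protein genes held members in 5 of 9 above 100 kb (55.6%), led by Celf2 (10), Rsrc1 (8) and Khdrbs2 (4), and its gene with most members, Rbms1 (16), lay below that length. Zfp536, among the 9 and without a member, encodes a zinc finger transcription factor. These shares came from few genes, and for none of the lists was a difference from the background tested.

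Marker genes of cell types mostly lack deep introns, so they check the label only weakly. Among 15 pluripotency markers 3 had at least 1 kb of deep sequence, of which Esrrb and Tet2 held 1 member each, and 6 held a peak of any kind on their strand. Pou5f1, Nanog and Sox2 held none and have no deep intronic sequence. Of 10 markers each, a peak was held by 7 of primitive endoderm and 3 of blood cells. For neurons the count was 3, for fibroblasts 2 and for liver 0. Members were held by Col4a2 (4), Gata4 (1) and Col4a1 (1) of primitive endoderm, Fli1 (3) of blood cells and Syn1 (1) of neurons. The share of all protein-coding genes with a peak on their strand is not given here, so these counts have no background. A peak list is not a measure of RNA level, and the part of other cells in these values was not tested.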

How the data were processed

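RNA bound by SAFB1 was measured by RIP-seq in 9 libraries, and the authors deposited 1 peak list for all of them. Per the submitters' processing notes, the build was mm10 and the tools were STAR, Subread and featureCounts. How peaks were called and whether libraries were pooled is not given in the sources used here. Every peak carries the same deposited score (500), which was not used. The list does not show library depth, so no precision per peak can be given.

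Starts were read as counted from 0, as in BED files, which no source states. Peaks were placed by midpoint in a GENCODE annotation of GRCm38. The distance to the nearest exon of the host gene set membership, with a threshold of 10 kb. Lengths of deep sequence came from the same annotation. Intervals were Wilson for shares, exact Poisson for densities and Newcombe for differences, all at 95%, computed in Python 3.11.15 with SciPy 1.17.1 and drawn with matplotlib 3.10.9. The steps were tested on simulated data. Sequences of the start windows came from RefSeq (GRCm38.p6), and those of exons of other-strand transcripts from GENCODE.

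The members, gene lists and rules were chosen with earlier results of these data known. Genes named were the 20 with most members, the 10 of highest density among those with at least 5, those of the 5 introns with most, those of the 5 members farthest from an exon, the 10 with most deep sequence and no member, and up to 4 of each list. Genes of the widest members and of most other-strand peaks, and introns beyond the 5 with most, were named after their values were seen. Some genes that these rules select are not reported here. Base composition across all members was not analysed here.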

Additional observations from a re-analysis of the deposited data

How the results depend on the processing

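Each of 8 values was recomputed under 15 settings, and none changed direction. With members over 5 kb from exons, the first-intron share was 23.8% and the share of genes with a member 28.2%. With members over 20 kb from exons there were 3285, at 17.2 per Mb, with 31.0% in first introns and members in 34.6% of genes. Counting exons of protein-coding transcripts only gave 18.7 per Mb and a first-intron share of 30.8%. Requiring the whole peak to lie beyond the threshold gave 17.5 per Mb and a within-gene ratio of 1.03. Keeping only peaks of median width or more left 2768 members at 9.01 per Mb, with 25.4% in first introns, 96.0% on the same strand, a median width of 1081 bases and members in 23.9% of genes. Without the 3 genes with most members the density was 17.2 per Mb, and without Grip1 the first-intron share was 25.4%. Keeping 1 peak per run of neighbours left 2989 members at 9.73 per Mb, with a ratio of 1.03, 52.0% on the 5' side, 25.1% in first introns, 91.3% on the same strand and a median width of 612 bases. Keeping wide peaks or 1 peak per run removes peaks and so lowers number and density by construction, and a larger minimum distance lowers the number. Requiring the whole peak lowers density and ratio by construction, since peaks across the threshold then count as nearer and the deep length stays the same. Keeping wide peaks also raises the median width and can only lower the share of genes with a member. Leaving out the 3 genes with most members, all denser than the rest, lowers the density. Of the 119 Grip1 members, 107 lay in its first intron, so leaving Grip1 out lowers that share. For the remaining shifts the cause was not tested. The settings without Gm20388 and without peaks in more than 1 coding gene were chosen after seeing the data. The settings for base composition were not run, since no genome sequence of this build was used here. No paired analysis was possible because the list has no values per library. Depth and the peak calls of single libraries limit every value here.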

Other observations

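Peaks of the opposite strand in deep sequence were few and gathered in some genes. Such peaks were found in 222 genes, 56 of which held no member. Slc22a22 held 14 of them and no member in 191 kb of deep sequence. Gm20388 and Gm37240 held 13 each, Pde4d 9, and Gab1 and Gfod1 6 each with no member.

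The farthest members lay in genes with unusually long annotated introns. The 5 farthest were all in Gm20388, a predicted gene, with a largest distance of 2009 kb in an intron of 4384 kb. Without it the 5 farthest were all in Fgfr2, a fibroblast growth factor receptor gene whose annotated intron of 2815 kb held 20 members, with a largest distance of 1310 kb. Gm37240 has an intron of 1245 kb with 3 members. Whether transcripts run through these introns in ES cells was not tested.

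Members on the X chromosome were found at 12.6 per Mb (10.9 to 14.4), against 18.5 per Mb (18.0 to 19.0) on autosomes, and 1 of the 19 autosomes was lower. Exons of other-strand GENCODE transcripts gave sequence for 41525 bases in 104 members, 0.985% of all member bases. A and G made up 51.5% of these bases on the host strand, against 48.7% of 234575 bases outside members in deep sequence of the same hosts. The bases outside members were not cleared of other peaks. The share was higher inside members in 33 of 54 hosts (61.1%, 47.8 to 73.0), an interval that includes an even split.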
